A study of Homo sapiens with 2 samples.

Results

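H2AFX and DPAGT1 lie next to each other on the minus strand of chromosome 11, and their RNA was measured in Huh7 cells with and without BS008. The reads were counted on exon rows, each given only by its position and strand, and the pair accounts for 4 of the 239322 rows. A row was taken when it lay on the minus strand wholly inside a fixed window over H2AFX or over DPAGT1, which meet between the genes, on hg19, the build named in the submitters' processing notes. This gave 1 row for H2AFX and 3 rows for DPAGT1. The pair was chosen by its measured counts in these same libraries, because the share of the row at the 3′ end of DPAGT1 among its nearest rows differed so much between them. The values below are therefore a description, with no test.

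H2AFX (now also named H2AX) encodes the histone variant H2AX, which takes the place of the usual H2A in a part of the nucleosomes and is phosphorylated around DNA double-strand breaks by the kinases ATM, ATR and DNA-PK. It is a single-exon gene whose RNA is known both as a replication-linked form that ends in a stem-loop and as a longer polyadenylated form. DPAGT1 encodes the enzyme of the endoplasmic reticulum that transfers GlcNAc-1-phosphate to dolichol phosphate, the first step in the assembly of the glycan for N-linked glycosylation, and it is the target of tunicamycin. The genes are treated separately here.

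Huh7 is a line of hepatocellular carcinoma cells. The control cells received 0.1% DMSO and the treated cells 0.1 mM BS008, an amiloride derivative, and both were kept for 24 h. The treatment label of the control sample gives DMSO, but its general protocol text names BS008, as does that of the treated sample, and every ratio of BS008 to control rests on the treatment label. Each condition has 1 library, made with an mRNA kit from total RNA, with 55476654 counted reads in control and 53578432 in BS008-treated cells. Nothing here measures the spread between cultures, and all intervals are 95% intervals for counting error only. A pool of cells also cannot tell fewer cells expressing a gene from less RNA per cell. The labelled cell type was not checked against its marker genes, as the rows carry no gene names and no annotation on hg19 was used here.

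Since the H2AFX row lies just downstream of the 3′-terminal row of DPAGT1, the letters before each start are shown to let the promoters be compared. Both genes were found in the RefSeq promoter table (2 of 2), and the 250 bases before each start follow, 5′ to 3′ on the minus strand of GRCh38.p14, at chr11:119095466-119095715 for H2AX and chr11:119101854-119102103 for DPAGT1. Capitals mark the motifs CCAAT and TATAAA, searched on both strands, so that CCAAT on the other strand reads ATTGG and TATAAA reads TTTATA. The motifs do not overlap each other, and they were chosen after the sequences had been seen.
H2AX: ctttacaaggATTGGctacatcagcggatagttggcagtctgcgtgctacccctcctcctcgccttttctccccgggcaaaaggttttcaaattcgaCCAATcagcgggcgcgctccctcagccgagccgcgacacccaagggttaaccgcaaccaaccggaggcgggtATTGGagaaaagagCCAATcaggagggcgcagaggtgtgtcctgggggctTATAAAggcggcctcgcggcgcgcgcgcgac
DPAGT1: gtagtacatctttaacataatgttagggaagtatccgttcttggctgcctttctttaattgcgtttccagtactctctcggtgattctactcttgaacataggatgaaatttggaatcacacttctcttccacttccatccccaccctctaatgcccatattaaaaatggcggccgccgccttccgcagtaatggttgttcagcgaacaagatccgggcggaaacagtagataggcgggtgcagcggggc

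The H2AX promoter holds 4 CCAAT motifs, which begin 240, 153, 81 and 67 bases before the start, and 1 TATAAA motif, which begins 31 bases before it. Neither motif is found in the 250 bases before DPAGT1. Of the 35116 promoters of this length in the table, 32% hold at least 1 CCAAT, 0.874% at least 4, and 10.7% at least 1 TATAAA. The H2AX window has 60.8% G and C and the DPAGT1 window 47.6%. CCAAT boxes are known as binding sites of the factor NF-Y and are common before histone genes. A match of letters is a description, and binding was not measured.

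The H2AFX row runs from 118964587 to 118966177, with a length of 1591 bases. In control cells it held 4987 reads (exact Poisson interval 4850 to 5127), and in BS008-treated cells it held 819 (764 to 877). The treated library was thus far below the control library, and the intervals lay far apart. As CPM, the count divided by the total of its library on a common scale, these were 89.9 and 15.3, so that H2AFX was 5.88-fold lower in BS008-treated cells (exact binomial interval of the ratio 5.46 to 6.34). On the log2 scale with a pseudocount of 0.5 CPM, the ratio of BS008 to control was -2.52. In RPKM, which also divides by the length of the row, the level went from 56.5 (54.9 to 58.1) in control to 9.61 (8.96 to 10.3) after BS008. The H2AFX row stood at percentile 89.8 of all rows with a read in the control library and at percentile 59.6 in the BS008 library. It thus moved from among the higher rows to near the middle.

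The H2AFX difference can be read against all rows. Rows were compared if 1 of the libraries held 10 counts or more. Of these 131330 rows, 3.79% were lower by 2-fold or more in the BS008 library. The corresponding value was 6.62% among the 9825 such rows of 1000 to 3000 bases, the length class of H2AFX, and 10.7% among the 9281 rows with at least 1000 counts in control. As H2AFX was chosen on this same contrast, its place among these rows is given as a description. The deeply read rows were picked on control counts alone. H2AFX passed this limit in control (4987 reads) but not after BS008 (819 reads). Such a limit favours rows that are lower after BS008, so this class is not an even background for H2AFX. A log2 ratio at or below that of H2AFX was found for 16 of the 9281 deeply read rows, H2AFX included, and for 15 of the 9825 rows of similar length. The median log2 ratio was -0.20 over the deeply read rows, 0.01 over the rows of similar length and -0.04 over all compared rows.

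**Figure D1:**
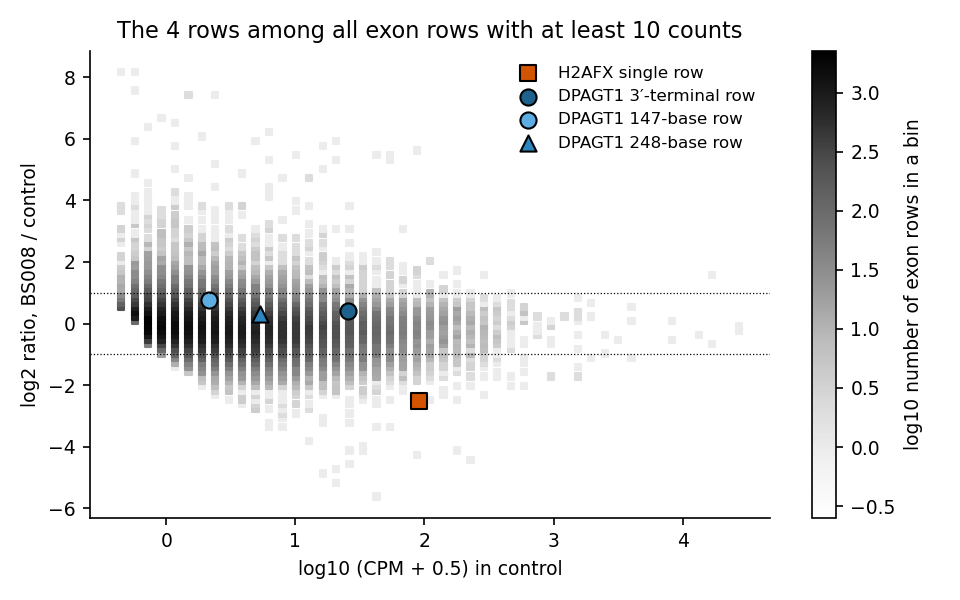
Log2 ratio of BS008 to control (pseudocount 0.5 CPM) against the level in control, on a log10 scale, for all exon rows that reached 10 counts. Grey squares are bins shaded by the number of rows, dotted lines mark 2-fold, and coloured points are the 4 rows of H2AFX and DPAGT1. The H2AFX row lies at -2.52 with few rows of its level below it, and the 3 DPAGT1 rows lie between 0.32 and 0.76, inside the 2-fold lines.

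DPAGT1 had 3 rows, all with more reads in the BS008 library. The 3′-terminal row, from 118967214 to 118969197 (1984 bases), had 1381 reads in control cells (1309 to 1456) and 1794 in BS008-treated cells (1712 to 1879). The middle row, from 118970972 to 118971118 (147 bases), had 92 (74 to 113) and 169 (144 to 196), respectively. The row farthest 5′, from 118971340 to 118971587 (248 bases), had 268 (237 to 302) and 330 (295 to 368). The intervals of the 2 libraries did not overlap for the 3′-terminal and the 147-base row, and they overlapped for the 248-base row.

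After scaling to the library totals, the ratio of BS008 to control was 1.35 (exact binomial interval 1.25 to 1.44) for the 3′-terminal row. It was 1.90 (1.47 to 2.48) for the 147-base row and 1.27 (1.08 to 1.50) for the 248-base row. The 147-base row had the highest ratio and also the fewest reads, and its interval lay just above that of the 3′-terminal row and overlapped that of the 248-base row. Summed over the 3 rows, DPAGT1 had 1741 reads in control and 2293 after BS008, which was 36.4% higher in CPM (28.1 to 45.2%; log2 ratio 0.44). None of the 3 rows reached 2-fold with the pseudocount, against 3.73% of all rows that were higher by 2-fold or more. The DPAGT1 difference was thus small and in the opposite direction to that of H2AFX.

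The limit of the DPAGT1 window cuts off 1 row. The next row upstream on the same strand, from 118971728 to 118973058, runs 58 bases past the window and was left out by the rule. It had 655 reads in control (606 to 707) and 735 after BS008 (683 to 790), a ratio of 1.16 (1.04 to 1.29). With this row included, DPAGT1 was 30.9% higher in BS008-treated cells (24.0 to 38.1%). The row after it, from 118977857 to 118979041, had 23 and 39 reads, respectively. A plus-strand row of 713 bases with the same midpoint had 22 and 38 reads. The reads of this second row outside therefore cannot be assigned to a strand or to DPAGT1. The row that runs past the window lay above its control value, as did the 3 rows inside.

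Because H2AFX was lower and DPAGT1 somewhat higher, the order of the genes was reversed across the 4 rows. In control cells the H2AFX row had 56.5 RPKM, above the 3′-terminal row with 12.5 (11.9 to 13.2), the 147-base row with 11.3 (9.09 to 13.8) and the 248-base row with 19.5 (17.2 to 22.0). The intervals of the 3′-terminal and the 147-base row overlapped in control, and every other pair of neighbours in this order was separated. In BS008-treated cells H2AFX had the lowest level of the 4 rows, 9.61 RPKM (8.96 to 10.3). It was followed by the 3′-terminal row with 16.9 (16.1 to 17.7), the 147-base row with 21.5 (18.3 to 24.9) and the 248-base row with 24.8 (22.2 to 27.7). Here the last pair overlapped. The row that runs past the window had 8.87 RPKM in control (8.20 to 9.58) and 10.3 after BS008 (9.57 to 11.1). After BS008 its interval overlapped that of H2AFX. The DPAGT1 rows stood between percentiles 61.8 and 73.1 of the rows with a read in control, and between 71.8 and 79.4 after BS008.

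**Figure D2:**
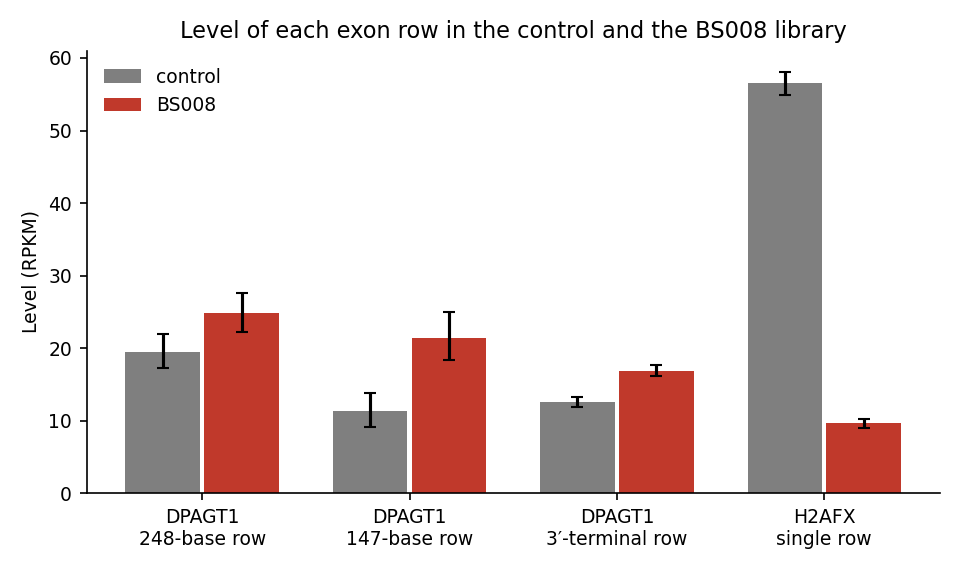
Level in RPKM of the 3 DPAGT1 rows and the H2AFX row, from 5′ to 3′ on the minus strand, in the control (grey) and the BS008 library (red). Bars are the value of 1 library each and error bars are exact 95% Poisson intervals, for counting error only. H2AFX is the highest bar in control at 56.5 and the lowest after BS008 at 9.61, while each DPAGT1 row is higher after BS008.

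The ratio of both genes within a library needs no scaling between libraries. The reads on H2AFX were 2.86 times those on the DPAGT1 rows in control cells (exact binomial interval 2.71 to 3.03) and 0.357 times in BS008-treated cells (0.329 to 0.387). Per base of row, with any introns inside a row counted, this was 4.28 (4.05 to 4.53) in control and 0.534 (0.493 to 0.579) after BS008. The per-length ratio of H2AFX to DPAGT1 was therefore 8.02-fold lower in the BS008 library. Of the reads on both genes, H2AFX held 74.1% in control (Wilson interval 73.1 to 75.2%) and 26.3% after BS008 (24.8 to 27.9%).

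The same numbers show what the share that chose this pair was made of. Among the 3′-terminal row of DPAGT1 and the nearest row on either side, the 3′-terminal row held 21.4% of 6460 reads in control (20.4 to 22.4%) and 64.5% of 2782 reads after BS008 (62.7 to 66.2%). One of these nearest rows was H2AFX, another gene. H2AFX held 77.2% of the reads on the 3 rows in control (76.2 to 78.2%) and 29.4% after BS008 (27.8 to 31.2%). Within DPAGT1 alone, the 3′-terminal row held 79.3% of the reads in control (77.4 to 81.2%) and 78.2% after BS008 (76.5 to 79.9%). These intervals overlapped, so a difference in this share within DPAGT1 was not detectable at this depth. With the row that runs past the window added, the share was 57.6% (55.6 to 59.6%) and 59.2% (57.5 to 61.0%), and these intervals overlapped as well.

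Of the DPAGT1 rows, the 147-base row differed most in share. The 147-base row held 5.28% of the DPAGT1 reads in control (4.33 to 6.44%) and 7.37% after BS008 (6.37 to 8.51%). These intervals met only at their edges, which does not show that the shares were equal. Its ratio of BS008 to control (1.47 to 2.48) also lay above that of the 3′-terminal row (1.25 to 1.44). The 248-base row held 15.4% (13.8 to 17.2%) and 14.4% (13.0 to 15.9%), respectively. The large difference in share thus appeared, among the shares given here, only when the H2AFX row was counted among the neighbours.

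**Figure D3:**
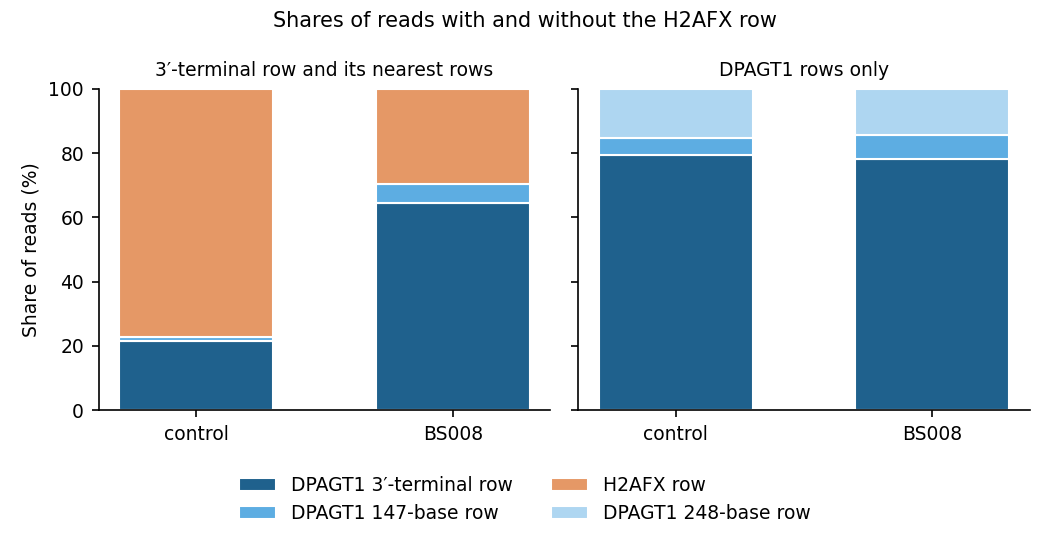
Share of reads in percent in the control and the BS008 library. On the left are the 3′-terminal row of DPAGT1 and the nearest row on either side, which include H2AFX, and on the right are the 3 DPAGT1 rows only. The share of the 3′-terminal row (dark blue) goes from 21.4% to 64.5% on the left, and is 79.3% and 78.2% on the right.

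Neighbouring rows usually differed little in their log2 ratios. Among 46189 pairs of neighbouring rows on the same strand, within 10 kb of each other and each with 100 counts or more in 1 of the libraries, the median distance between the log2 ratios was 0.13. The distance between H2AFX and the 3′-terminal row of DPAGT1 was 2.94. Of all pairs, 0.236% had log2 ratios 2 or more apart, and 28 pairs were at least as far apart as this one, itself included. As this pair was chosen on the same contrast, its place among the pairs is given as a description. The gene of each row is not known for the other pairs, so pairs within 1 gene and pairs across a gene border were counted together.

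The lengths of the rows were compared with the annotation, without carrying any position from one build to the other. The gap between the H2AFX row and the 3′-terminal row of DPAGT1 is 1036 bases in the files, and the gap between the genes is 1035 bases in GENCODE release 29. The H2AFX row, with 1591 bases, is 1 base shorter than the gene H2AX in RefSeq (1592 bases) and also shorter than the exon of the transcript H2AFX-202 in GENCODE (1614 bases). The 147-base row has the length of the sixth exon from the 3′ end of the transcript DPAGT1-201, and the distances of 1774 bases on its 3′ side and 221 bases on its 5′ side equal the introns there. The 248-base row is longer than the next exon, which has 214 bases. The lengths of the H2AFX row and of the 248-base row thus differ from GENCODE.

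The 3′-terminal row of DPAGT1 is not 1 exon of the full-length mRNA. The last 5 exons of DPAGT1-201 span 1981 bases together with the 4 introns between them, against 1984 bases for the row, and 906 of these bases are intronic. Among the 19 annotated DPAGT1 transcripts the longest exon has 1977 bases. Reads on this row can therefore come from any of several exons or from retained introns, and the skipping of a single one of these exons cannot be read from its count. RPKM divides by the whole row, so the 12.5 and 16.9 RPKM of this row would be higher per exonic base wherever the introns are removed. The same limit applies to the order of the rows by RPKM, and to ratios and shares per base of row that include this row.

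The H2AFX row could also take in reads of a neighbour. No other row overlapped any of the 4 rows on either strand (0 rows), and the nearest row on the opposite strand lay 327 bases from H2AFX. The RefSeq gene span of DPAGT1 covers the whole of H2AX. Any reads of a DPAGT1 transcript on the H2AFX row cannot be told apart from those of H2AFX itself. The same would hold for plus-strand reads on this row if the counting ignored strand, which was not tested. The kit selects mRNA, and the counts do not separate the stem-loop form of H2AFX RNA from the polyadenylated form.

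The rows around the pair were examined for a change shared by the region. Within 50 kb on either side there were 84 other rows on both strands, of which 77 reached 10 counts. None of these 77 was 2-fold lower (0 rows), 12 were at least 2-fold higher, and 68 lay above 0 on the log2 scale. Over all 131330 compared rows, 3.79% were at least 2-fold lower and 3.73% at least 2-fold higher. The median log2 ratio was 0.50 over the 77 rows, 0.42 over the 3 DPAGT1 rows and -0.04 over all compared rows. DPAGT1 thus stood within the range of its surroundings, whereas H2AFX stood below all 77 of these rows. The lowest of the other rows, on the plus strand from 118962123 to 118962236, had 137 reads in control and 78 after BS008 (log2 ratio -0.60).

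On the minus strand, all 26 rows downstream of H2AFX that reached 10 counts lay above 0, between 0.15 and 0.68. None of them was near H2AFX, with midpoints 38.3 to 50.5 kb from its start. Rows close together can come from the same transcript, so the numbers of rows in this region do not count independent observations. The plus-strand rows nearest to H2AFX had lower values than these distant minus-strand rows. There were 12 of them within 10 kb, counted in the same way, and they lay between -0.60 and 0.02, with 2044 reads in control and 1573 after BS008 (ratio 0.797). All 9 of the other rows below 0 belonged to this group, and they lay between 1065 and 5568 bases from H2AFX. On the other side, upstream of DPAGT1, all 21 plus-strand rows lay above 0, up to 1.82.

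**Figure D4:**
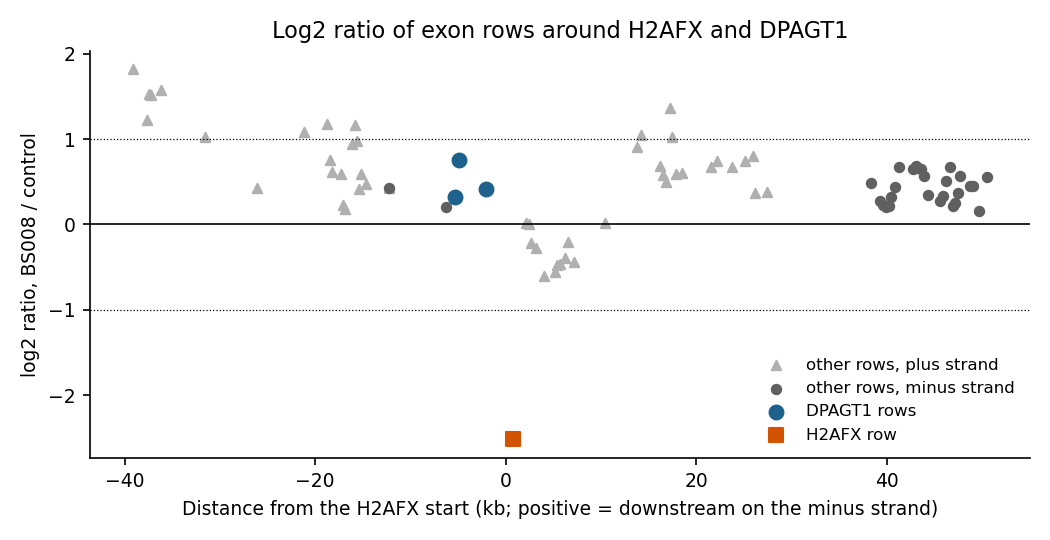
Log2 ratio of BS008 to control (pseudocount 0.5 CPM) of each exon row with at least 10 counts against its distance in kb from the start of H2AFX, where positive values lie downstream on the minus strand. Triangles are plus-strand and circles minus-strand rows, blue points are the 3 DPAGT1 rows, the orange square is H2AFX, and dotted lines mark 2-fold. H2AFX at -2.52 is the lowest point, the next lowest is a plus-strand row at -0.60, and the DPAGT1 rows lie among the points above 0.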

How the data were processed

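RNA of Huh7 cells was sequenced in 1 library for DMSO and 1 for BS008, grouped by the treatment label of each sample. The authors deposited raw counts per exon row, without normalization. They also deposited RPKM values, which divide each count by the length of the row and the summed counts of the library. hg19 is named in the submitters' processing notes, and the aligner, counting tool and annotation are not given in the sources used here. Exon rows were assigned by position only, and every row of both genes is named. The members and lists were chosen with earlier results of these data known. Counts have exact Poisson intervals, ratios exact binomial intervals and shares Wilson intervals, at 95%, for counting error only, since reads are not independent molecules. No test between conditions was made, as each condition has 1 library. Rows that reached 10 counts in 1 of the libraries were compared at 2-fold on log2 (CPM + 0.5). The computation of ratios and their intervals was checked on simulated counts with known fold changes. The planned lists of related genes and cell markers were not used here, because only 1228 of the 239322 rows have the position of a GENCODE exon, whose build is GRCh38. Alternatives were other scalings (edgeR 4.0.16, DESeq2 1.42.0), pseudocounts, count minimums and sets of DPAGT1 rows. Computations used Python 3.11.15, scipy 1.17.1, pandas 2.3.3 and R 4.3.3.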

Additional observations from a re-analysis of the deposited data

How the results depend on the processing

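The log2 ratio of H2AFX lay between -2.55 and -2.47 under 6 alternatives of scaling, pseudocount and unit, and that of DPAGT1 between 0.38 and 0.49 under 8 alternatives, which include other sets of rows. Neither changed direction. The share of the 3′-terminal row within DPAGT1 was 28.97% in control and 26.7% after BS008 when reads were taken per base of row, and 57.6% and 59.2% with the next upstream row, an alternative chosen after seeing the data. The reads on H2AFX relative to DPAGT1 were 13.9 and 1.64 times without the 3′-terminal row, 3.61 and 0.457 times against that row alone, and 2.08 and 0.270 times with the next upstream row. These alternatives use other rows or lengths, and the ratio was lower after BS008 in each. The number of rows past 2-fold in all rows, 4977 lower and 4902 higher, was 11189 and 11471 with a pseudocount of 0.1 CPM and 3017 and 3020 with a pseudocount of 1 CPM, since the pseudocount sets how far rows with few reads can move. No scaling moved the log2 ratios by more than 0.05. No paired analysis was possible because each condition has 1 library, and for the same reason no replicate could be left out. Depth limits the 147-base row most, which had 92 and 169 reads, and no depth shows how much separate cultures differ.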
